A study of Mus musculus with 16 samples.

Results

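The Hoxc cluster is the run of 9 homeobox genes Hoxc13, Hoxc12, Hoxc11, Hoxc10, Hoxc9, Hoxc8, Hoxc6, Hoxc5 and Hoxc4 on mouse chromosome 15. Its members here were all peaks and islands that touch the mm9 window chr15:102750000-102875000, which runs from the Hoxc13 end to the Hoxc4 end and is 125001 bp long. They number 29 of 610361 in the 16 deposited lists, namely 13 H3K27me3 islands, 16 H3K4me3 peaks and 0 H3K36me3 peaks. The cluster was chosen by H3K27me3 length: the merged domain around it, chr15:102570201-102983000, was the longest of 109362 merged H3K27me3 regions. The length of H3K27me3 over the domain is therefore a description and not a finding, while H3K4me3, H3K36me3 and the difference between the ages were not used in the choice.

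Histone methylation was mapped by chromatin immunoprecipitation and sequencing in hematopoietic stem cells from the bone marrow of wild-type C57BL/6 mice, sorted as SP-KSL-CD150+. The mice were 24 months old, called old here, or 4 months old, called young, and no other difference in genotype or treatment is given in the labels. H3K27me3 and H3K36me3 were each measured in 3 old and 3 young libraries and H3K4me3 in 2 old and 2 young libraries. The labels describe the samples as technical replicates under numbered biological ones, and whether animals were shared is not given. The tests below thus set the ages against a spread between libraries that may be technical only.

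Hox genes encode homeodomain transcription factors that give cells their position along the body axis, and their order on the chromosome follows the order in which they act. Outside the places where they act they are typically held silent by Polycomb complexes, whose mark is H3K27me3. H3K4me3 lies at promoters, and where it occurs together with H3K27me3 the chromatin is called bivalent. H3K36me3 is laid down over transcribed gene bodies. In blood stem cells the Hoxa and Hoxb genes are the Hox genes known for their expression, while the Hoxc genes are better known from skin, limb and trunk. Hoxc13 acts in hair and nails, Hoxc10 and Hoxc9 in the identity of spinal motor neurons, and Hoxc8 and Hoxc6 in the pattern of the thorax. Hoxc4 has also been described in mouse B cells.

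All 9 genes were found in RefSeq's table for GRCm38, in the order given above. That table places 5 further genes between the first and last of them. These are the long non-coding RNA Hotair, the microRNAs Mir196a-2 and Mir615, and the non-coding RNAs Gm36878 and Gm29905. Gene positions on mm9 were not used here and coordinates were not carried between builds, so peaks are given by position within the cluster and not by gene. For the same reason the labelled cell type was not checked against its marker genes.

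The microRNAs of the cluster act by their sequence and lie among the Hoxc genes on GRCm38. miR-196a is known to act on Hox transcripts. Their mature forms are shown 5′ to 3′ from RefSeq (GRCm38.p6), with the seed, bases 2 to 8, in capitals.
mmu-miR-196a-5p: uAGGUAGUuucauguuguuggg
mmu-miR-196a-2-3p: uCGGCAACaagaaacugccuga
mmu-miR-615-5p: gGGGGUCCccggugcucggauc
mmu-miR-615-3p: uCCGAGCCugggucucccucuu
The seed of miR-196a-5p is shared in that table by 1 other name, mmu-miR-196b-5p, while the other 3 seeds are held by no other name.

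RefSeq's promoter table held 1 of the 9 members, Hoxc4. Its promoter is shown as the only one available. CG dinucleotides are in capitals, since promoters rich in them are known as sites of Polycomb in mammals. Whether this promoter lay under H3K27me3 was not tested, because its position was not carried to mm9. The promoter lies at chr15:103034145-103034444 on the plus strand of GRCm38.p6.
Hoxc4: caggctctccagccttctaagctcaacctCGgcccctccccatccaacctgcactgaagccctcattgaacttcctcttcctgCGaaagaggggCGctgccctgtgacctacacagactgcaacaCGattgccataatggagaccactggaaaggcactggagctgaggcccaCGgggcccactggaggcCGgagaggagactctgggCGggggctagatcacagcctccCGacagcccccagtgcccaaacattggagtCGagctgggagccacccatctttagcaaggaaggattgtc
Its 300 bases hold 9 CG dinucleotides, which read the same on both strands. Of the 32841 promoters of that length in the table, 45.8% hold at least as many, and their median is 7. The Hoxc4 promoter is 60.3% G or C, and its CG count is 0.33 of that expected from its C and G bases.

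H3K27me3 spanned the Hoxc window without a break in the old libraries. In each of the 3 old libraries a single island held the whole window, and all 125001 bp of it were covered. In old replicate 1 that island ended on the window's last base, and a gap of 800 bp followed at chr15:102875001-102875800. The island was 142400 bp long in old replicate 1, 269200 bp in old replicate 2 and 170400 bp in old replicate 3. In young replicates 2 and 3 the mark covered 99.4% and 97.9% of the window, but in 2 and 4 islands. The longest of these had 168600 bp in young replicate 2 and 87000 bp in young replicate 3. The island touching the window was the longest island of its list in all 3 old libraries and in young replicate 2, and the third longest in young replicate 3.

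Young H3K27me3 replicate 1 stood apart over the cluster as it does over the genome. It covered 33800 bp of the window (27.04%) in 4 islands, of which the longest had 20000 bp. Over the genome its islands held a mean of 0.44% of the H3K4me3 bases, against 8.93 to 11.4% in the other 5 libraries. Whether they mark the same chromatin was not tested. The islands of young replicate 1 were denser in the window than along chromosome 15. The cluster was chosen by H3K27me3 length, so this is a description only. That library covered 8.30% of the chromosome up to the last peak of any list, so the window was covered 3.26 times as densely, against 12.7 to 17.7 times in the other 5 libraries. Results that rest on it are given with and without it.

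**Figure D1:**
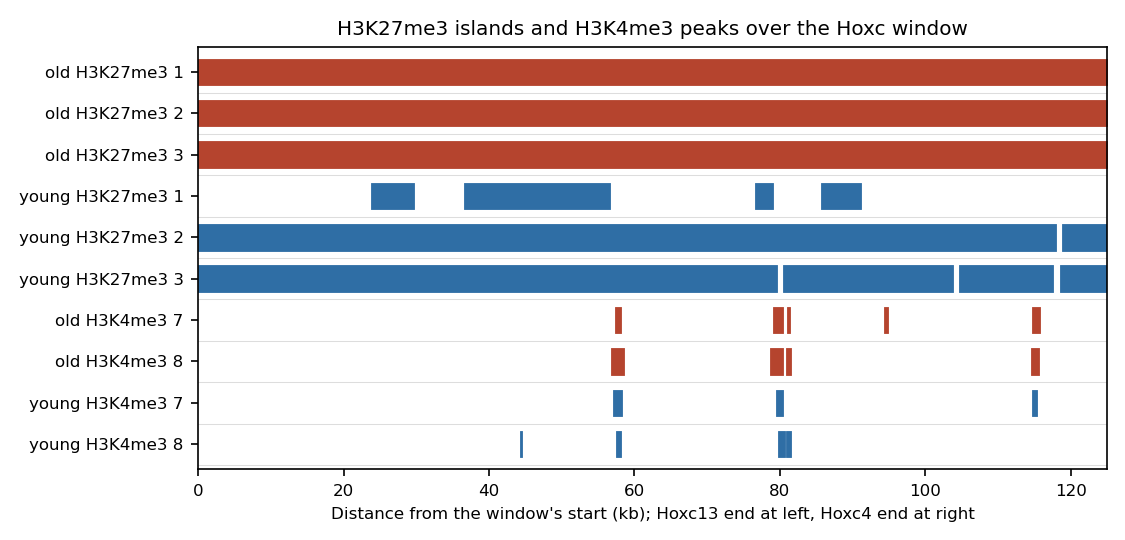
H3K27me3 islands and H3K4me3 peaks of each library over the Hoxc window. Bars are islands or peaks and the horizontal axis is the distance from the window's start in kb, with old libraries in red and young ones in blue. The 3 old H3K27me3 rows are unbroken, young replicates 2 and 3 show 1 and 3 narrow gaps, and the H3K4me3 peaks all lie more than 44.2 kb from the start.

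The number of islands over the window was 1, 1 and 1 in old libraries, against 4, 2 and 4 in young libraries. The groups did not overlap, and an exact two-sided permutation test returned p = 0.1, below which 3 against 3 libraries cannot go. This separation depends on where the window ends, since old replicate 1 had a further island 800 bp past that edge. A covered window cannot have fewer than 1 island, so young libraries could not lie below the old ones. As the cluster was chosen by H3K27me3 length, the separation is a description only. Without young replicate 1 the means were 1 ± 0 in old (SD, n = 3) and 3 ± 1.41 in young libraries (SD, n = 2), with an exact p of 0.1, again the smallest possible. Covered length in the window averaged 125001 ± 0 bp over old libraries and 93467 ± 51681 bp over young libraries (SD, n = 3 each). The difference was 31534 bp (exact permutation p = 0.1), and 1700 bp when young replicate 1 was left out (exact p = 0.1), so nearly all of it came from that library. Old libraries had the largest length possible, so young ones could only equal it or fall below. Within title number 18, a number in the sample titles that the labels do not explain, the old library had 1 island and the young library 2, and within title number 20 they had 1 and 4. For the genome beside it, consecutive tiles of the window's length were counted if at least 50% covered in the 5 libraries other than young replicate 1. Of 175 such tiles, 8.57% had fewer islands in all 3 old libraries than in young replicates 2 and 3, and 0 had more. Covered length was higher in all 3 old libraries in 10.3% of the same tiles.

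**Figure D2:**
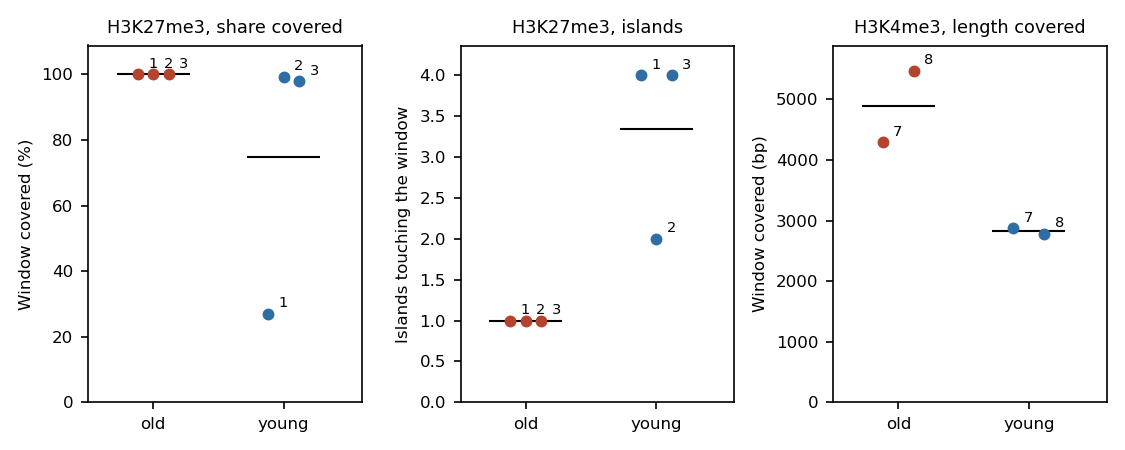
Values of each library over the Hoxc window, with the mean as a line: percent of the window under H3K27me3, number of H3K27me3 islands touching it, and bp under H3K4me3. Numbers beside the points are replicate numbers. Old libraries have 1 island each and 4294 and 5474 bp of H3K4me3, against 2 to 4 islands and 2785 to 2873 bp in young libraries.

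The breaks in the young islands were short. Young replicate 2 had 1 gap of 800 bp, at chr15:102868001-102868800. Young replicate 3 had 3 gaps, of 800 bp at chr15:102829601-102830400, 800 bp at chr15:102853801-102854600 and 1000 bp at chr15:102867601-102868600. No gap in any of the 6 lists was shorter than 800 bp, so islands nearer to each other do not occur as separate entries. Near the Hoxc4 end the gaps of young replicates 2 and 3 shared 600 bp. The first gap of young replicate 3 lay under an H3K4me3 peak in all 4 H3K4me3 libraries, which covered 779 and 800 of its 800 bp in old libraries, against 776 and 725 bp in young libraries. The gaps of young replicates 2 and 3 elsewhere in the window held no H3K4me3 peak.

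H3K4me3 lay in the part of the cluster towards Hoxc4. No H3K4me3 peak of any library touched the first 44.2 kb from the Hoxc13 end, and the first region held by all 4 libraries began 56.8 kb from it. The 16 peaks were 357 to 1803 bp long and merged into 6 regions. Covered length in the window was 4294 and 5474 bp in old replicates 7 and 8, against 2873 and 2785 bp in young replicates 7 and 8. Both old libraries lay above both young ones, with means of 4884 ± 834 bp and 2829 ± 62.2 bp (SD, n = 2 each). The difference was 2055 bp, and the exact permutation test returned p = 0.333, below which 2 against 2 libraries cannot go. In 18.3% of 8595 tiles of the same length both old libraries lay above both young ones, and in 10.3% both lay below. Over the whole list old replicate 7 covered less than young replicate 7, 27.2 against 29.6 Mb, while old replicate 8 covered 32.5 Mb and young replicate 8 covered 26.9 Mb. Within title number 18 the window held 4294 bp in the old and 2873 bp in the young library. With equal numbers of peaks per list the difference was 1594 bp, and among peaks at or above the median score of their list it was 0 bp, because no peak of the window has such a score.

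Of the 6 regions, a pair was held by all 4 libraries. The first, chr15:102806812-102808583, had 929 and 1772 covered bp in old libraries, against 1168 and 767 bp in young libraries, and the ages overlapped. The second, chr15:102828667-102830646, had 1293 and 1803 covered bp in old libraries, against 957 and 971 bp in young libraries. Here both old libraries lay above both young ones, as in 16.5% of the 17307 regions tested. Its log2 ratio of old to young was 0.57 ± 0.21 (SE) on the log2(bp + 200) scale, with an adjusted p of 0.665 by limma. Without old replicate 8 the ratio was 0.36, and with 1000 in place of 200 bp added it was 0.37.

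The next 2 regions by number of libraries were held by 3 each. The region chr15:102830821-102831582, 174 bp further on, had 458 and 762 covered bp in old libraries, against 0 and 690 bp in young libraries, which overlap. The region chr15:102864553-102865780, nearest to the Hoxc4 end, had 1150 and 1137 covered bp in old libraries, against 748 and 0 bp in young libraries. Both old libraries again lay above both young ones, with a log2 ratio of 1.63 ± 0.79 (SE) and an adjusted p of 0.920 by limma. The size of this ratio rests on young replicate 8, without which it was 0.50, and without young replicate 7 it was 2.75 with an adjusted p of 0.0566. With 1000 bp added in place of 200 it was 0.70. The last 2 regions were held by 1 library each. The region chr15:102794201-102794557 had 357 bp in young replicate 8 and 0 bp elsewhere, and chr15:102844384-102844847 had 464 bp in old replicate 7 and 0 bp elsewhere.

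By limma no H3K4me3 region of the cluster passed an adjusted p of 0.05. Of the 6 regions 4 could be tested, being covered in at least 2 libraries, and 0 of them were called, beside 0% of all 17307 regions. At an unadjusted limma p under 0.05 there was 1 of the 4, the region at chr15:102828667-102830646, and 6.04% of all regions passed that mark with more coverage in old libraries. Over the genome 1253 regions passed it in either direction. The log2 ratios of chr15:102806812-102808583 and chr15:102830821-102831582 were 0.38 and 0.92. Their direction rested on 1 library each, the first being -0.027 without old replicate 8 and the second -0.16 without young replicate 7.

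**Figure D3:**
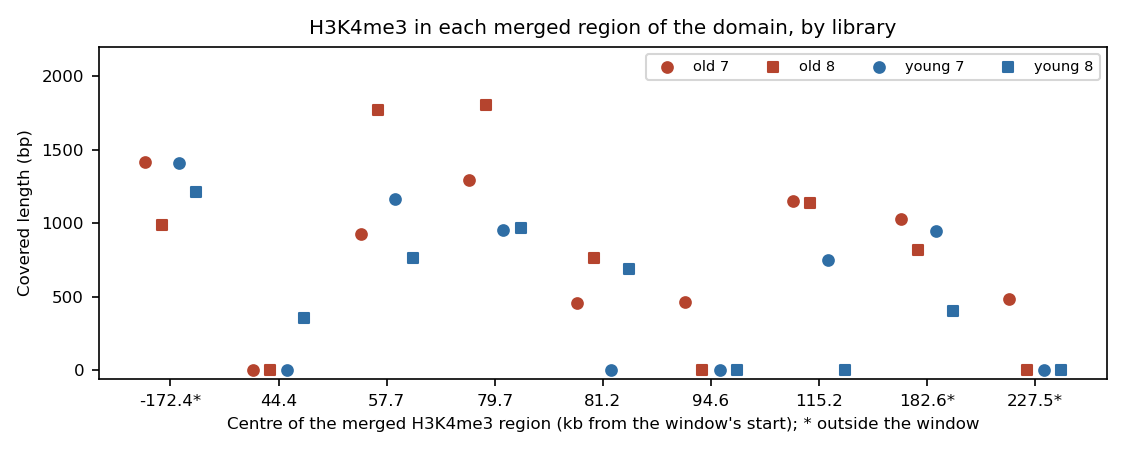
Covered length in each merged H3K4me3 region of the domain, by library, against the centre of the region in kb from the window's start. Both old libraries (red) lie above both young ones (blue) at 79.7 and 115 kb, and a value of 0 means that the library has no peak there.

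The H3K4me3 peaks of the cluster were weak ones for their lists. The authors' score for them was 134 to 1477, while the lists reach a ceiling of 3100 that 47.7 to 59.7% of their peaks meet or pass. The peak of the highest score had a percentile of 32.4 and 42.3 in old replicates 7 and 8, against 27.3 and 17.2 in young replicates 7 and 8. The percentile is the share of peaks in the list with a lower score. The highest scores were at chr15:102828667-102830646 in old replicate 8 and young replicate 7, and at chr15:102806812-102808583 in old replicate 7 and young replicate 8.

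How much H3K4me3 of the window lay under H3K27me3 follows largely from the H3K27me3 by which the cluster was chosen, so it is a description and no test or comparison is drawn from it. Old replicates 1, 2 and 3 covered the whole window, so their islands held 100% of its H3K4me3 bases by construction. Young replicate 2, with 99.4% of the window covered, also held 100%. Young replicate 3, with 97.9% of the window covered, held a mean of 78.6% over the 4 H3K4me3 libraries (73.0 to 85.4%), since 1 of its gaps lies under a peak. Young replicate 1, with 27.04% of the window covered, held a mean of 4.73% (0 to 12.8%) and touched 2 of the 6 regions. The lists come from pooled cells, so whether both marks lie on the same chromosomes was not measured.

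H3K36me3 was not found in the cluster or anywhere in its domain. No peak of the 3 old or 3 young lists touched the 412800 bp of the domain. The nearest region held by at least 2 libraries lay 20006 bp before the domain, at chr15:102545522-102550194, in all 3 old libraries and young replicates 5 and 6. After the domain it lay 2596 bp away, at chr15:102985597-102988604, in old replicate 6 and young replicates 5 and 6. Young H3K36me3 replicate 4, a list of 6399 peaks against 39362 to 84437 in the others, had its nearest peak 200724 bp away.

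The window makes up 30.3% of the domain, which runs on from it on both sides. Covered length in the whole domain was 365000, 403200 and 356800 bp in old libraries, against 57000, 379600 and 372600 bp in young libraries. Old libraries averaged 375000.0 ± 24764 bp and young libraries 269733 ± 184266 bp (SD, n = 3 each; exact permutation p = 0.6). Without young replicate 1 the direction turned, with a young mean of 376100.0 ± 4950 bp (SD, n = 2), a difference of -1100.0 bp and an exact p of 1. The domain is 1 of 30998 H3K27me3 regions tested by limma, of which 0% were called, with 1368 at an unadjusted p under 0.05. Its own log2 ratio was 0.90 ± 1.33 (SE), with an adjusted p of 0.877. The median log2 ratio over all tested regions was 0.48, and with each library centred on its own median the ratio of the domain was -0.26.

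Outside the window the islands of the domain were broken at both ages. Before the window, old replicates 1, 2 and 3 had 21, 6 and 26 islands, against 11 and 13 in young replicates 2 and 3, so the ages overlapped. After it they had 7, 1 and 7, against 5 and 9. Over the whole domain there were 28, 6 and 32 islands in old libraries, against 16 and 24 in young replicates 2 and 3. In young replicate 1 there were 4 islands before the window, 0 after it and 8 in the whole domain. The domain was merged from all H3K27me3 lists, so its outermost islands set its edges. A distance of 0 bp below is thus fixed by construction, and the distances are a description only. The first island of the domain began 400, 400 and 0 bp from its start in old libraries, and 800 and 3000 bp in young replicates 2 and 3. The last ended 0, 600 and 2200 bp before its end in old libraries, and 0 and 1400 bp in those young libraries. In young replicate 1 the first island began 123400.0 bp from the start and the last ended 141800.0 bp before the end.

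**Figure D4:**
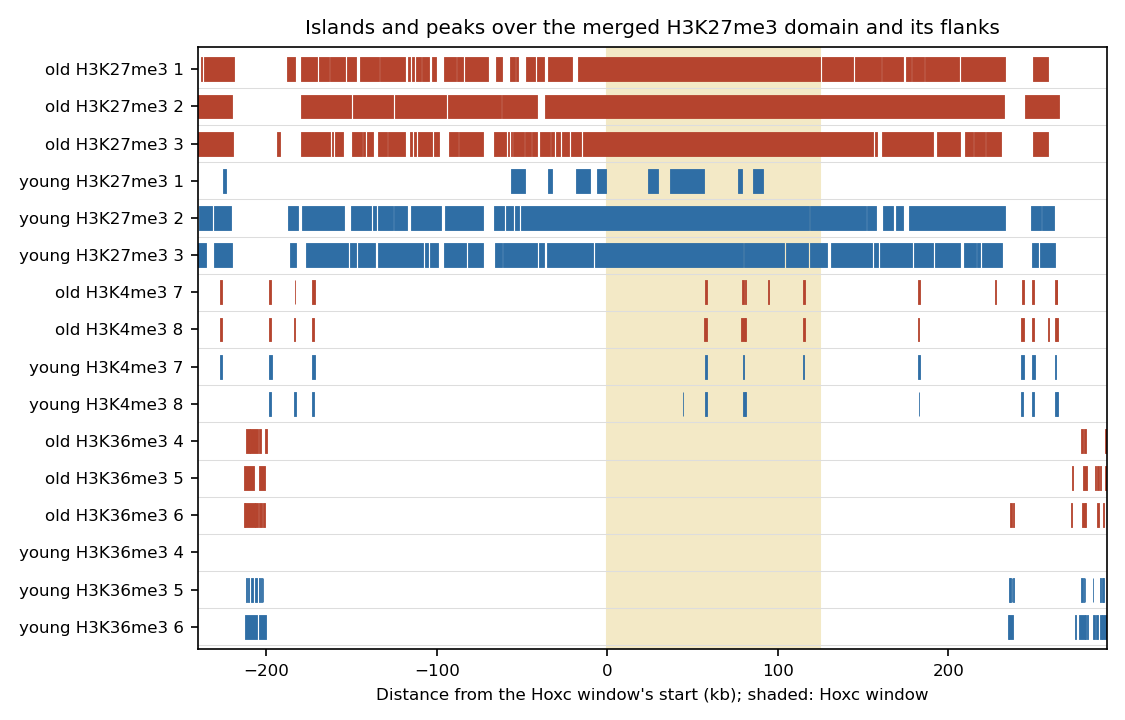
Islands and peaks of all 16 libraries over the merged H3K27me3 domain and 60 kb on either side, with the Hoxc window shaded. Bars are islands or peaks, old in red and young in blue, by distance from the window's start in kb. H3K27me3 is broken up before the window and dense over it, and H3K36me3 bars occur on both sides of the domain but not in it.

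By section of the domain, the islands touching the window had the highest score per kb in each library. The cluster was chosen by the length of H3K27me3, so these scores are a description only. The authors' score, of unstated unit, was summed over islands and divided by their length. It came to 50.2, 30.8 and 55.8 per kb for the islands touching the window in old replicates 1, 2 and 3, and to 24.0 and 53.7 per kb in young replicates 2 and 3. For the islands before the window it was 23.4, 16.1 and 26.3 per kb in old libraries, and 13.5 and 27.4 per kb in those young libraries. The value for islands touching the window was above that before it in each of these 5 libraries. Such islands are taken whole and reach beyond the window, as in old replicate 2 at chr15:102713201-102982400. Set against islands of at least 5 kb in the same list, the islands touching the window lay at the 99.0 to 99.4 percentile in old libraries. In young replicates 2 and 3 they lay at the 98.5 and 99.7 percentile. In young replicate 1 the score was 15.3 per kb for islands touching the window and 14.4 per kb before it, where the islands touching the window lay at the percentile 31.0. The scores are to be read within a list, and no difference between the ages is drawn from them, since their scale may differ.

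**Figure D5:**
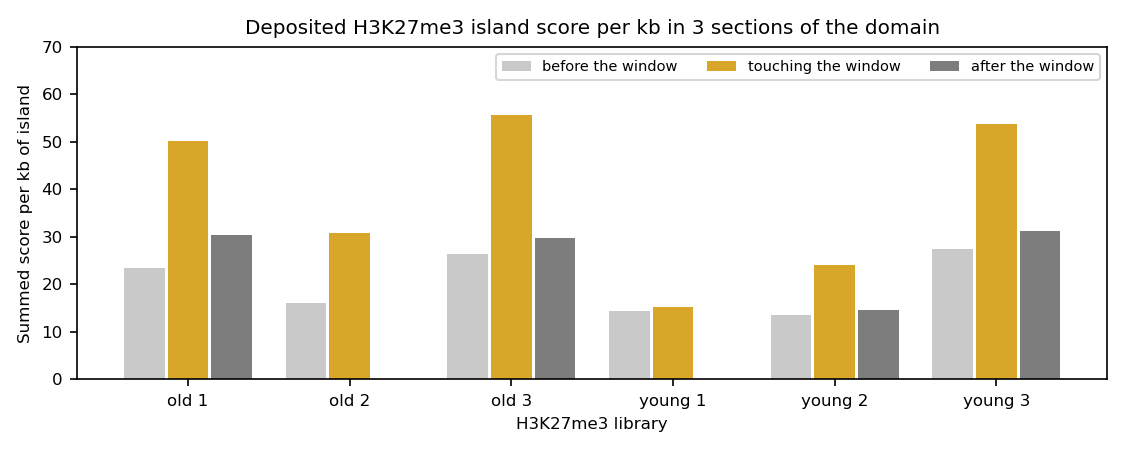
Summed H3K27me3 score per kb of island, as deposited, in 3 sections of the domain for each library. Bars are missing where a library has no separate island in a section, and heights are to be read within a library only. The islands touching the Hoxc window lie above those on either side in old replicates 1 and 3 and young replicates 2 and 3, and above those before it in old replicate 2.

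Outside the window the domain held 3 more H3K4me3 regions. The region chr15:102576856-102578425, near the start of the domain, had 1420 and 992 covered bp in old libraries, against 1410 and 1211 bp in young libraries. The region chr15:102932106-102933137 had 1032 and 817 covered bp in old libraries, against 950 and 402 bp in young libraries, and the ages overlapped in both. The region chr15:102977275-102977759 had 485 bp in old replicate 7 and 0 bp elsewhere. In the whole domain H3K4me3 covered 7231 and 7283 bp in old libraries, against 5233 and 4398 bp in young libraries, where the exact permutation test again returned 0.333. Just outside the domain stood peaks at the score ceiling of 3100 in all 4 lists, 10011 and 9866 bp after its end in old libraries, against 9785 and 9738 bp in young libraries.

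Among the 103 merged H3K27me3 domains of at least 100 kb, the Hoxc domain was rich in H3K4me3 regions without being extreme. It held 9 of them, or 2.18 per 100 kb, where the median over the domains was 0.75 and 13 domains had more. A total of 39 domains held none, and 95 had no H3K36me3 in any library. The next longest domain, chr19:44655201-44992600, held 5 H3K4me3 regions, or 1.48 per 100 kb, and the third longest, chr5:112931801-113257200, held 0. By the distance between domains in the percent covered in each of the 16 libraries, the domains most like the Hoxc domain were that on chromosome 19, at 10.6 percentage points, chr2:74445601-74617600, also at 10.6, and chr7:86624601-86751800, at 11.5, where the median of all was 33.2. These 3 held 1.48, 3.49 and 2.36 H3K4me3 regions per 100 kb and no H3K36me3. Young replicate 1 covered 13.8% of the Hoxc domain and 4.51, 8.14 and 4.56% of these 3.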

How the data were processed

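The authors deposited 1 peak list per library, on mouse build mm9. The submitters' processing notes name CASAVA 1.4, SICER and MACS. Caller versions, thresholds, controls and depth were not given in the sources used here, so precision is judged from replicates alone. H3K27me3 lists had bounds on a 200 bp grid, as SICER islands do, and the other lists named MACS peaks. The deposited score of each peak has no stated unit and was used only within a list, to rank or filter peaks and, summed over islands and divided by their length, to describe sections of the domain.

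Covered length and numbers of peaks were computed per library with Python 3.11.15 and numpy 2.4.6. Old and young were compared by exact two-sided permutation tests. Peaks of a mark were merged where they shared a base or abutted, and log2(bp + 200) of each merged region entered limma 3.58.1 (R 4.3.3) with a trend. Regions needed coverage in 2 or more libraries, and p-values were adjusted by Benjamini-Hochberg and called under 0.05. This fit was first tested on regions simulated with a single fixed spread, so that test does not cover regions of wider spread. All regions of the window, up to 10 others of the domain, the nearest H3K36me3 region on each side, the next 2 longest domains and the 3 most alike were named. The members and lists were chosen with earlier results of these data known.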

Additional observations from a re-analysis of the deposited data

How the results depend on the processing

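With 2 or 3 libraries an age, no exact test here could reach 0.05, and read depth is unknown, so a short gap or a weak peak may depend on depth. Over the window the differences in H3K27me3 length and islands kept their direction under every alternative run. Each old library had all 125001 bp covered by 1 island, the largest length and smallest number possible. Leaving out or pairing libraries could therefore not turn the direction, and its constancy is no support. Over the whole domain the difference in H3K27me3 was 105267 bp, but -1100.0 bp without young replicate 1. It was 23600 bp within title number 18 and -15800.0 bp within title number 20, neither of which holds that library. Leaving out 1 library at a time gave -1100.0 to 160200.0 bp. For H3K4me3 over the window, length differed by 1465 to 2645 bp and the number of peaks by 0.5 to 1.5 without each library in turn. Among peaks at or above the list median all H3K4me3 differences were 0, since no peak of the domain was left, and with equal numbers of peaks the difference in the number of peaks was 0. The limma ratio of the domain was -0.26 with libraries centred, -0.0062 without young replicate 1, and up to 1.36 without another library. Leaving out 1 library at a time also turned the H3K4me3 ratios at chr15:102576856-102578425 (-0.34 to 0.10), chr15:102806812-102808583 (-0.027 to 0.78), chr15:102830821-102831582 (-0.16 to 1.99) and chr15:102932106-102933137 (-0.039 to 0.89); the cause was not tested. Over all regions limma called 0 for each mark, but 2766 H3K27me3 regions without old replicate 2, and 94, 16, 60 and 16 H3K4me3 regions without old replicate 7, old replicate 8, young replicate 7 and young replicate 8. Limma called 0 regions of the window or domain in every setting, with 0 to 2 of the window's H3K4me3 regions at an unadjusted p under 0.05. With at least 50% of a region required, young replicate 1 touched 1 H3K4me3 region. Whether equal replicate numbers mark pairs could not be decided. Some libraries of equal replicate number carry unlike title numbers, as H3K27me3 replicate 1 with 17 in old and 16 in young. The replicate block thus joins libraries across title numbers. Correlations of same-numbered libraries were 0.02 to 0.14 for H3K27me3 and -0.03 to 0.06 for H3K36me3. Those of libraries with unlike numbers were -0.15 to 0.05 and -0.06 to 0.04. For H3K4me3 they were 0.005 and -0.005, equal in size by construction with 2 libraries an age. With the replicate block the window's difference in H3K27me3 was 31534 bp (exact sign permutation p = 0.25) and in H3K4me3 2055 bp (exact p = 0.5).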
